A study of Mus musculus with 87 samples.

Results

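Early transposons (ETn) are endogenous retroviruses of the mouse with 2 long terminal repeats (LTRs) that encode no proteins of their own and move with proteins supplied in trans. The study counts the closely related ETnERV elements, which hold Gag, Pro and Pol genes, together with them. Both kinds are called ETn here and were not told apart. On insertion, the integrase duplicates a few bases of the target site, and both LTRs of a new copy are identical because they are made from 1 template, so differences between them accumulate with age. Inbred strains differ in which copies they carry, and ETn insertions within genes, mostly in introns, account for a number of classical mouse mutations.

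In crosses of C57BL/6 (B6) and 129 mice, 328 of 5018 loci were chosen as polymorphic ETn loci by ETn capture-seq, in which genomic DNA is enriched with RNA probes for ETn LTR ends. Reads per locus were divided by the library's total to give reads per 1e6 ETn-paired reads (RPM), and a locus was called at 10 RPM or more. Members were chosen by reaching 100 RPM in at least 2 of 76 main libraries, which are 1 library per mouse or embryonic stem (ES) cell line, while lying below 10 RPM in at least 1. Loci at 100 RPM or more in all 76 main libraries numbered 1776 and are called fixed loci here.

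The main libraries came from 74 mice and 2 ES cell lines. All mice except the Chr2-cl mating belonged to the Chr4-cl pedigree, in which a KRAB zinc finger gene cluster of chromosome 4 was deleted in B6 ES cells and KO/WT clones were used for injection of albino B6 blastocysts. The 16 B6 libraries were 2 WT mice, the 2 KO/WT ES lines, 4 KO mice without listed parents, 3 KO mice of generation F3 bred from these 4, and 5 of F4, for whose mother the labels give 2 candidates. The B6/129 F1 mice were made by crossing to 129X1/SvJ followed by intercrossing, and comprised 2 KO/WT parents and 11 offspring of generations 1 and 2 (8 labelled KO and 3 labelled WT, although the study's text calls the mice of this cross that were not KO heterozygous). The 39 B6/129 F2 mice, crossed to 129X1/SvJ again and intercrossed, comprised 3 KO/WT parents and 1 KO parent and 35 offspring (18 KO, 9 KO/WT and 8 WT). The Chr2-cl mating gave 8 mice (5 KO, 2 WT and 1 KO/WT) that lacked a chromosome 2 cluster on both, neither or 1 allele, from R1 ES cells of mixed 129 substrain origin bred with B6. DNA came from tail, ear, blood or spleen, and the labels used give no age beyond marking some tails as adult. No inbred 129 mouse was among the libraries analysed here, so 129 alleles are seen in crosses alone.

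Depth was 525419 to 1046650 ETn-paired reads, with a median of 736479, and 4.05 to 5.92% of the reads lay at the 328 loci. At these depths 10 RPM was 5.25 to 10.5 reads, and a count of 0 allows up to 5.71 RPM in the shallowest and 2.87 RPM in the deepest library, by counting error alone. The shallowest library, of the B6 KO mouse T2379, stood apart. Its median level at fixed loci, relative to the B6 mean, was 0.784, against 0.999 to 1.02 in the other 3 KO mice of its group. Without it there were 326 polymorphic loci. The animals labelled male C6923, C6924, C6926 and H04408 held few reads at loci of chromosome Y, and fixed loci of chromosome X in them lay at 1.0 to 1.02 of the female mean.

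By their calls in the 16 B6 libraries, 129 of the members were B6-present, called in every B6 library. Another 106 were B6-absent, called in no B6 library, and 93 were B6-variable, called in some. Without T2379 the classes held 131, 110 and 85 loci. Autosomes held 315 members, chromosome X 10 and chromosome Y 3, the last all B6-variable. Of the 328 members, 8 are set apart here. They were the 3 loci of chromosome Y, 2 loci of chromosome 4 that were below 10 RPM in KO mice alone, and 3 loci that neither parent of the first litter with carriers held. The other members are not all differences between B6 and 129. Among them 14 B6-variable loci were called in B6 libraries alone, and the B6-variable locus at Unc13b was called in every library outside B6. Chromosome 1 had the most members with 32, followed by chromosome 4 with 29 and chromosome 6 with 28.

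Sequences of the reference genome (NCBIM37, the assembly of mm9) show what a B6-present locus consists of. The following junctions were chosen because both LTRs of the element were identical and a 6-base duplication flanked it, so that the insertion point can be read. Each line holds 20 bases of flank and 40 bases of LTR in the direction of the element, and the capitals mark the duplicated target site. The element in an intron of Acn9, the gene for a succinate dehydrogenase assembly factor, spanned chr6:6973680-6977602 on the minus strand and was 3923 bases long with LTRs of 317 bases.
Acn9 upstream junction: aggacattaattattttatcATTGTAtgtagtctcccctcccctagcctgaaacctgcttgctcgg
Acn9 downstream junction: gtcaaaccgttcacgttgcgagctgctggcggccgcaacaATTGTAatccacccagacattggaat
The element in an intron of Kbtbd12 spanned chr6:88517143-88523444 on the minus strand, with 6302 bases.
Kbtbd12 upstream junction: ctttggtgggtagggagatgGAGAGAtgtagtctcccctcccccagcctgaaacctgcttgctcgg
Kbtbd12 downstream junction: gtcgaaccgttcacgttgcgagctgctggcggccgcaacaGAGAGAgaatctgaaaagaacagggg
The element in an intron of Rcbtb2 spanned chr14:73587068-73594546 on the minus strand, with 7479 bases.
Rcbtb2 upstream junction: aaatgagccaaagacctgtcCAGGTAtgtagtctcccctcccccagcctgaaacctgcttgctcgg
Rcbtb2 downstream junction: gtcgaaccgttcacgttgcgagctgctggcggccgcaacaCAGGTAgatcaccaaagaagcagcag
The element at Wiz, a zinc finger gene, was B6-variable, and spanned chr17:32506367-32513461 on the plus strand with 7095 bases.
Wiz upstream junction: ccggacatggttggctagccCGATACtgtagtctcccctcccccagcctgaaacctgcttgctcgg
Wiz downstream junction: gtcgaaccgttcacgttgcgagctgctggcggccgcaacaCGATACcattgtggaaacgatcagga
At a B6-absent locus the reference holds no such element. The middle 100 bases of the read cluster in an intron of Scaper, chr9:55738126-55738225, are given on the plus strand to show this empty site. Where in or near the cluster the insertion point lies was not determined.
Scaper reference site: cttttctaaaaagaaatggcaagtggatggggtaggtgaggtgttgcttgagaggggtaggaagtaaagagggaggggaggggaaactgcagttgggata

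The share of loci with an ETn LTR in the reference separated the classes. The rule and the classes used reads alone, but the reference genome is itself of the B6 strain. The contrast between B6-present and B6-absent loci therefore follows largely from how the classes were defined. It checks the calls against the B6 sequence and is no independent test of the strain difference. LTRs were found by matching the 902 distinct ETn capture probe sequences to the genome. An LTR lay within 1000 bp of 127 of the 129 B6-present loci (98.4%), of none of the 106 B6-absent loci and of 39 of the 93 B6-variable loci (41.9%). The share was 99.8% among the 1776 fixed loci and 0.502% among all reference windows of 2118 bp, the median width of a member. The B6-present loci without one were chr5:79852164-79853122, which lay just inside the 100 RPM limit, and chr16:3251967-3254269.

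Where the reference held a whole element with 2 LTRs, the LTRs of polymorphic elements were more alike than those of fixed ones. They were identical in 17 of 41 B6-present elements (41.5%) and in 9 of 13 B6-variable elements (69.2%), against 14 of 249 elements at fixed loci (5.62%). Median LTR identity was 99.7% in B6-present, 100% in B6-variable and 97.8% in fixed elements. A perfect 6-base duplication flanked 78.0%, 100% and 75.1% of the elements of these classes. Elements were mostly 5 to 6 kb (28 of the 53 polymorphic elements) or 6 to 8 kb long (22 of 53).

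**Figure D1:**
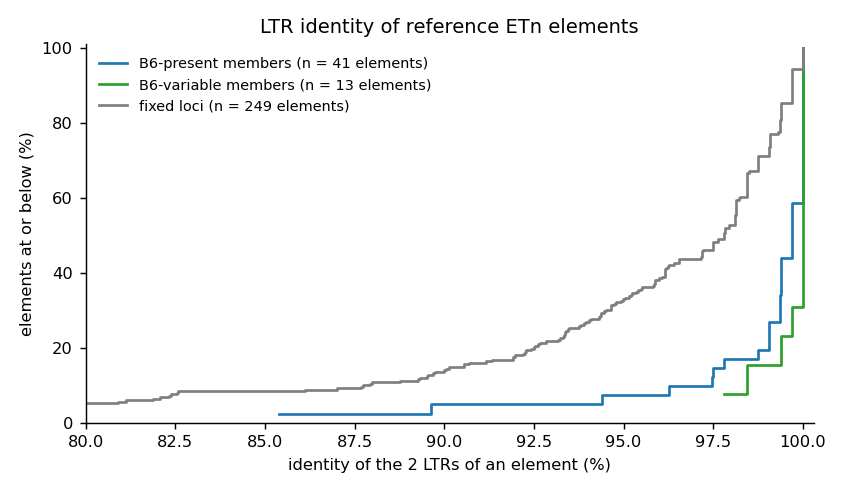
Cumulative share of reference ETn elements (y axis, percent) at or below a given identity of their 2 LTRs (x axis, percent), for B6-present, B6-variable and fixed loci. The curves of the polymorphic classes rise mainly above 99%, whereas that of the fixed elements rises from below 85%, with a median of 97.8%.

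One element often gave 2 loci, because reads at both ends formed separate clusters. There were 34 pairs of neighbouring members within 10000 bp, and 33 of them lay at the 2 ends of 1 reference element. The pairs shared 96.5% of their 2584 calls, and 14 pairs had the same call in all 76 main libraries. Counted once per pair, the members would be 294. None of the 34 pairs held a B6-absent locus.

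Of the 328 members, 76 (23.2%) overlapped a protein-coding gene, against 20.1% of fixed loci and 38.9% of reference windows. The shares were 17.1% for B6-present, 26.4% for B6-absent and 28.0% for B6-variable loci. Most genic members, 62 of 76, lay in introns. Where the LTR strand was known, the element ran against the gene in 26 of 30 members, and in 270 of 352 fixed loci (76.7%). These counts are of loci, so an element with a locus at each end, such as those at Ptprd and Kbtbd12, entered 2 times. The genes with B6-absent loci included the axon guidance gene Slit3, the cold receptor gene Trpm8, the lectin-like receptor gene Klrb1 and the basement membrane collagen gene Col4a6.

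The 24928 values of the members fell mostly into 2 ranges, as the rule favours. No read was seen in 26% of them, and 54.3% were at 100 RPM or more, leaving 11.5% below 10 RPM and 8.13% from 10 to below 100 RPM. In carriers, the median level was 230 RPM at B6-present, 196 RPM at B6-absent and 253 RPM at B6-variable loci. Libraries below the call limit had no read in 84.7% of values at B6-absent loci but in 32.3% at B6-present loci, where their 95th percentile was 8.62 RPM against 1.90 RPM. The low levels at B6-present loci also crossed the limit. In the 76 libraries, 850 of 2925 values under 0.25 of the B6 mean at autosomal B6-present loci (29.1%) were still called, with a median of 16.4 RPM and a highest value of 71.7 RPM. Counts of calls are therefore given beside the dose below, and the source of these reads was not tested.

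At the edge of the rule, 28 members had their lowest library at 5 RPM or more, and 30 further loci with at least 2 libraries at 100 RPM were left out with a lowest library of 10 to 20 RPM. The second highest library was below 110 RPM in 5 members and at 90 to 100 RPM in 8 loci left out for it. The second highest library held 100 RPM at chr5:79852164-79853122 and 100.8 RPM at chr2:103957574-103957844, just inside the limit. It held 99.46 RPM at chr3:73237649-73238715 and 99.55 RPM at chr10:44727475-44728545, just outside. The lowest library held 9.300 RPM at chr7:19288004-19291034 and 9.446 RPM at chr3:95198438-95206441, which were members, and 10.25 RPM at chr14:44740650-44743345 and 10.52 RPM at chr4:34874943-34876592, which were not.

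Among the genic B6-present loci, the highest B6 level was at Acn9 (chr6:6972099-6978804), at 681, 750 and 816 RPM for the lowest, median and highest of 16 B6 libraries. In the Chr2-cl mice it was 676 to 718 RPM. The F1 parents held 522 RPM (T3913) and 535 RPM (T3921), and the 13 F1 animals ran from 11.0 to 748 RPM with a median of 29.9 RPM. All 13 were called, including those with residual reads just above 10 RPM.

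At Schip1 (chr3:68139292-68141812) no F2 mouse was called. B6 libraries held 249 to 471 RPM with a median of 445 RPM, and the F1 parents 330 RPM and 319 RPM. In the 39 F2 mice the highest value was 4.92 RPM. B6 libraries are called at such a locus by definition of its class, and 9 of the 129 B6-present loci were called in no F2 mouse. At Gm20388 (chr8:125714154-125716758) B6 libraries held 282 to 493 RPM and F2 mice 0 to 10.4 RPM, with 1 of 39 called.

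Other genic B6-present loci kept carriers in F2. At Tmem51, which encodes a transmembrane protein, B6 libraries held 476 to 599 RPM and 32 of 39 F2 mice were called. At Rpp14, the gene for a ribonuclease P subunit, B6 held 263 to 536 RPM and 22 of 39 F2 mice were called. All these calls were at 0.25 of the B6 mean or more. Slfn8 of the Schlafen family was called in 37 of 39 F2 mice, 34 of them at that level, and 4931422A03Rik in 23, 21 of them at that level. Ptprd, a receptor tyrosine phosphatase gene, was called in 38 at chr4:77224714-77227555, with 26 at that level, and in 26 at the other end of the element, chr4:77219481-77220675. The calls at both ends agreed in 61 of 76 libraries, the fewest of any pair.

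At Mrgpra2b, a Mas-related receptor gene, all 39 F2 mice were called at 266 to 496 RPM, whereas 9 of 13 F1 animals were. Of the B6-present loci, 11 were called in all F2 mice and 9 in none. Those in no F2 mouse also included both ends of an element at Adarb2, which encodes a relative of the RNA-editing enzymes, and 1 end of the Rcbtb2 element printed above.

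The B6-absent locus with the highest carrier level was at Scaper (chr9:55737075-55739277), which encodes a cyclin A-associated protein. The 39 F2 mice held 422, 467 and 521 RPM for the lowest, median and highest. The F1 parents held 302 RPM and 319 RPM, and the 16 B6 libraries 0 to 1.27 RPM. The low B6 values follow from the class, which requires that no B6 library is called. None of the 8 Chr2-cl mice was called, with values of 0 to 5.72 RPM, and the same held at 35 of the 106 B6-absent loci.

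A locus at Pgbd5, a gene derived from a piggyBac transposon, had no read in any B6 library. It was called in all 39 F2 mice at 320 to 399 RPM, in 10 of 13 F1 animals and in 5 of 8 Chr2-cl mice, where the highest value was 283 RPM. Hunk, a protein kinase gene, and Zfp874a, a zinc finger gene, were likewise called in all 39 F2 mice, and in 5 and 6 of 8 Chr2-cl mice. At Ltbp1, which encodes a latent TGF-beta binding protein, 38 F2 mice and 1 Chr2-cl mouse were called, the latter at 10.2 RPM. At Dgki, a diacylglycerol kinase gene, 36 F2 mice and no Chr2-cl mouse were called.

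The B6-absent loci divided by cross. Of the 106, 56 were called in both the Chr4-cl crosses and the Chr2-cl mating, 35 in the Chr4-cl crosses alone and 15 in the Chr2-cl mating alone. Among the last were chr13:101612612-101613980, with 6 of 8 Chr2-cl mice called and a highest value of 371 RPM, and chr13:11371737-11373456, with 4 of 8 and 315 RPM. In F2, 32 B6-absent loci were called in all 39 mice. These held all 6 B6-absent loci of chromosome 9, a set named after its values were seen, and none of the 6 was called in a Chr2-cl mouse.

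Carriage per animal followed the breeding. B6-absent loci were called 0 times in every B6 library, 86 times in each F1 parent, 60 to 75 times in F1 offspring and 58 to 82 times in F2 offspring. Chr2-cl mice carried 31 to 52. B6-present calls numbered 129 in B6 libraries by definition, and 126 and 120 in the F1 parents T3913 and T3921. They numbered 89 to 128 in F1 offspring, 59 to 107 in F2 offspring and 106 to 122 in Chr2-cl mice. The F1 offspring T00869, with the 128 calls, also stood apart in its residual reads. It called 21 of its 22 B6-present loci of low dose, at a median of 24.4 RPM.

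**Figure D2:**
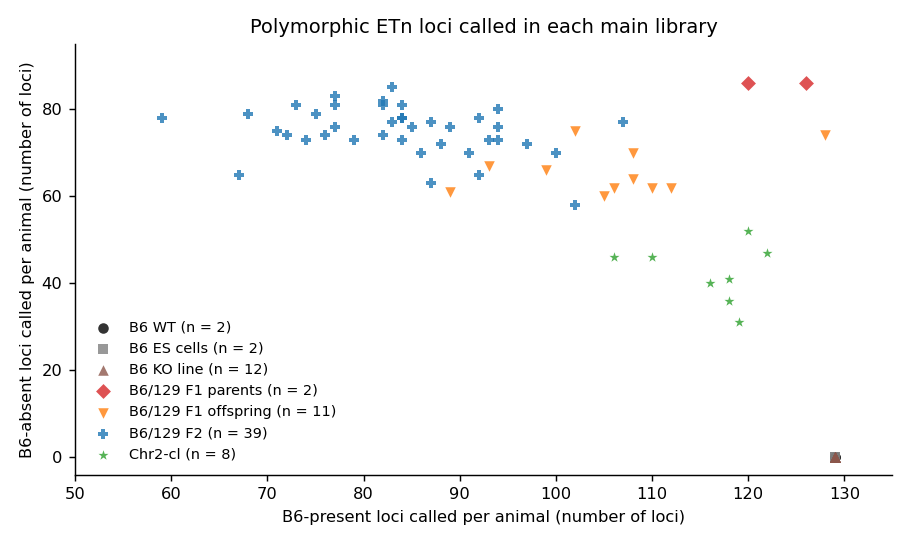
Number of B6-present loci (x axis) against number of B6-absent loci (y axis) called in each of the 76 main libraries, with 1 point per library and marker by strain and group. B6 libraries coincide at 129 and 0, the F1 parents lie at 126 and 86 and at 120 and 86, F2 mice lie to the left, and Chr2-cl mice lie between 31 and 52 B6-absent loci.

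To read carriage as dose, RPM was divided by the mean of the B6 libraries. The scale was set on fixed loci of chromosome X, which males carry in 1 copy. There, 33 males had a median of 0.762 of the female mean (range 0.701 to 0.797), and their autosomal fixed loci 1.02. The 37 females had a median of 1.01 and a range of 0.778 to 1.04, with 1 female, T2379, within the male range. One copy thus read as 0.762 and not as 0.5, and the cause was not tested. Doses were split at 0.25 and at 0.881, midway between 0.762 and 1, into low, middle and high bands. For B6-absent loci, full dose was the mean of the F1 parents divided by 0.762, at the 81 autosomal loci both parents called.

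The F1 parents, as offspring of a cross between B6 and 129X1/SvJ mice, had median doses of 0.737 and 0.760 at B6-present loci (mean 0.749 ± 0.0157, SD, n = 2), against 1.0 and 1.01 at fixed autosomal loci. In them 83.1% and 83.9% of 124 autosomal B6-present loci were in the middle band. The other 15 B6 libraries had 93.2% of values in the high band, while T2379 had 58.9% in the middle band. Among F1 offspring 26.2 ± 7.61% of loci were low, 43.0 ± 6.41% middle and 30.7 ± 4.98% high (SD, n = 11).

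In F2 offspring 50.1 ± 7.64% of B6-present loci were low, 30.9 ± 6.5% middle and 19.0 ± 4.27% high (SD, n = 35). At B6-absent loci the same mice had 14.1 ± 6.59% low, 31.5 ± 8.89% middle and 54.4 ± 8.15% high. In Chr2-cl mice 13.4 ± 5.96% of B6-present loci and 59.7 ± 8.79% of B6-absent loci were low (SD, n = 8). For these classes the members' selection sets the direction against B6, so the values are a description without a test.

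**Figure D3:**
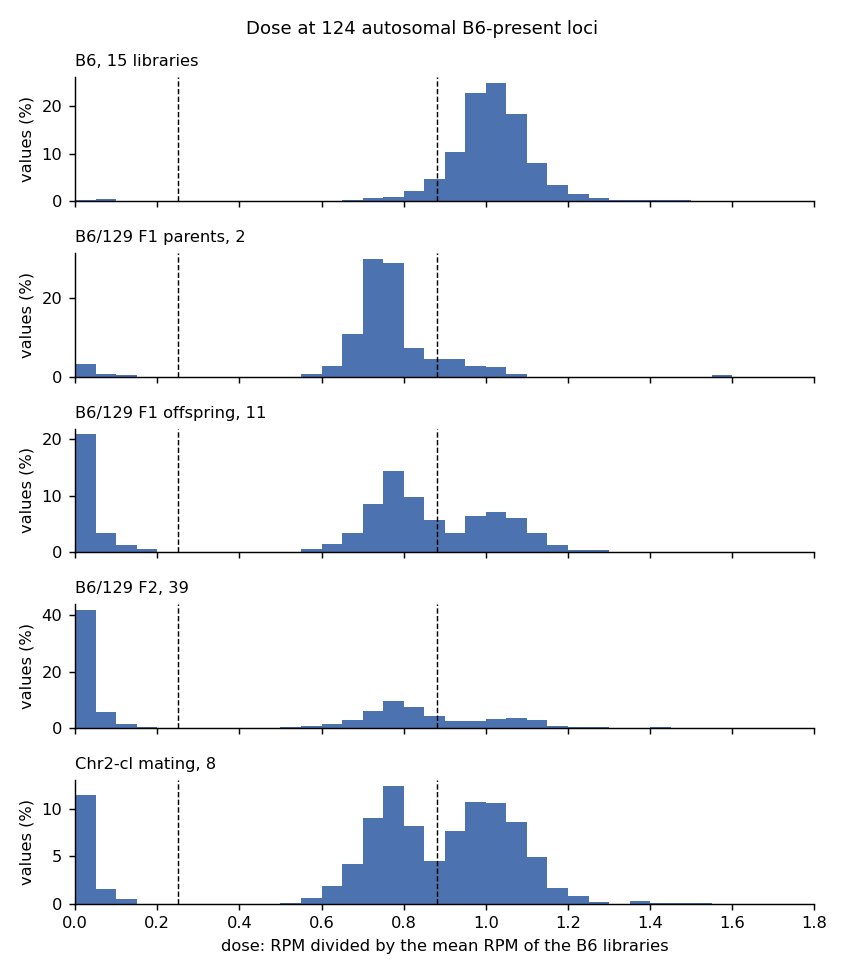
Distribution of dose (x axis, RPM divided by the mean of the B6 libraries) at 124 autosomal B6-present loci, as percent of values (y axis) in 5 sets of libraries, with the T2379 library left out. Dashed lines mark 0.25 and 0.881. B6 libraries peak near 1, F1 parents between 0.7 and 0.8, and F1 offspring, F2 and Chr2-cl mice show 3 groups of values.

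Parents and offspring were then compared locus by locus in 6 matings outside B6 with sequenced parents (46 offspring). Where both parents were in the middle band, 26.8% of 1717 offspring values at B6-present loci were low, 47.8% middle and 25.4% high. At B6-absent loci they were 25.8%, 41.7% and 32.4% of 1014 values. Of these, 560 came from the litter of T3913 and T3921. Full dose at B6-absent loci was defined from these parents, so their middle band was largely set by that definition. A low and a middle parent gave 45.7% low, 50.2% middle and 4.09% high values at B6-present loci, and 40.2%, 51.8% and 8.0% at B6-absent loci. Where both parents were low, all 1303 offspring values at B6-present loci were low.

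With a middle and a high parent, 5.42% of values at B6-present loci were low, 47.2% middle and 47.4% high. With both parents high, 88.0% of offspring values were high at B6-present and 89.5% at B6-absent loci, while 6.08% and 1.65% were low. A low and a high parent gave 57.4% and 66.2% middle values, 26.3% and 15.3% low values, and 16.3% and 18.5% high values. The bands are ranges of level and need not match copy number, and the cause of these values was not tested. Loci of 1 chromosome and siblings are not independent, so no test was made of these shares.

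**Figure D4:**
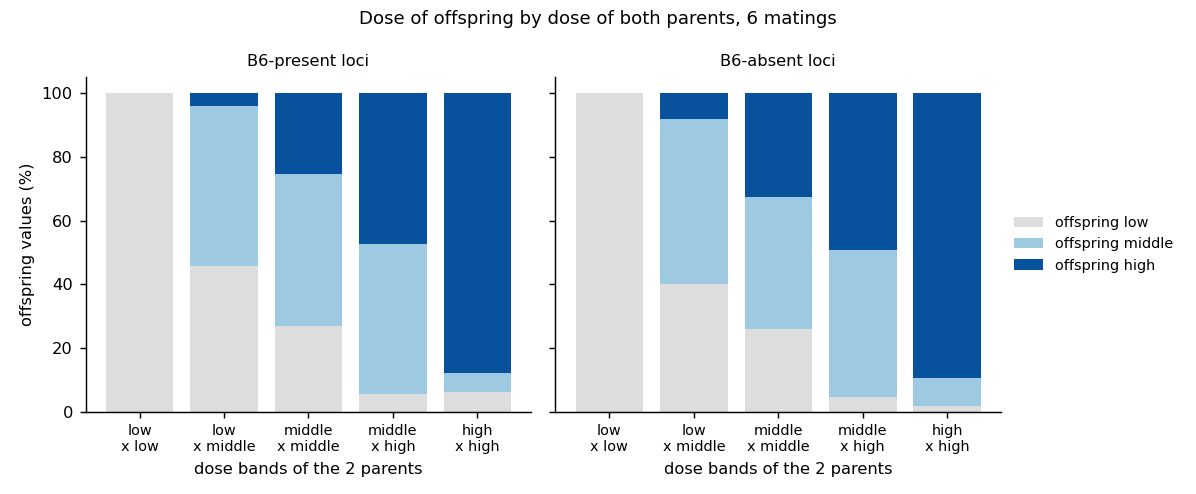
Offspring values in the low, middle and high dose bands (y axis, percent, stacked) by the dose bands of both parents (x axis), at B6-present loci (left) and B6-absent loci (right) in 6 matings. Middle by middle parents gave 26.8%, 47.8% and 25.4% at B6-present loci, and low by low parents gave low values alone. Pairs of a low and a high parent are not drawn.

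Counted as calls over all matings, the B6 F4 litter included, an offspring carried 62.4 ± 14.4% (SD, n = 51) of the loci that 1 parent carried. It carried 89.7 ± 5.38% of those that both carried and 1.08 ± 1.89% of those that neither carried. The share of 1-parent loci was 54.1 ± 20.2% in F1 generation 1 (n = 7), 61.1 ± 7.41% in generation 2 (n = 4), of which T00869 was a parent, 61.8 ± 8.64% in mating 1 (n = 16), 56.8 ± 8.84% in mating 2 (n = 9), 55.6 ± 4.49% in mating 1 generation 2 (n = 2) and 68.5 ± 5.32% in mating 3 (n = 8). The spread of F1 generation 1 rested on T00434 with 14.3%, without which the share was 60.7 ± 11.1% (n = 6). Differences between matings were not tested. The B6 F4 litter carried 80 ± 27.4% (n = 5) of only 6 such loci.

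Loci that neither parent carried were called in 2 or more siblings, and in no animal outside their descendants, at 3 places. These were chr6:51549777-51550984 in 3 of 16 offspring of mating 1 (263 to 289 RPM), the Cyfip2 locus chr11:46034231-46035369 in 2 of 16 (244 and 262 RPM), and the Sntb1 locus chr15:55654317-55655079 in 2 of 8 offspring of mating 3 (284 and 291 RPM). All other calls without a parental call were at 10 to 25.4 RPM, at loci with many carriers elsewhere. One of these, chr9:104363352-104366347, was called in 8 of 16 offspring of mating 1.

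Further libraries of the same animals, which helped to define the loci but not to choose the members, shared 96.3 to 98.2% of member calls with the animal's main library (median 97.0%, 11 libraries). Most of these further libraries came from 1 KO mouse, C6733, and are no separate animals. Its tail library was compared with libraries of testis, brain, blood, kidney and adult tail. Main libraries of different animals shared 38.7 to 100%, with a median of 68.0% over 2850 pairs.

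Polymorphism within B6 separated reference from other loci. Of the 90 B6-variable loci outside chromosome Y, 36 had an LTR in the reference and 54 had none. Both ES lines were called at all 36 reference loci and at 1 of the 54 others, chr18:19461214-19462352, where they held 253 and 256 RPM and 3 KO mice held 207 to 270 RPM. The 14 B6 mice missed 1 to 17 of the reference loci and carried 14 to 31 of the others. The 31 were called in T2379, the library that stood apart, and 17 of them reached 100 RPM. The next highest number was 29, in T00460. The WT mice T09655 and T09656 missed 2 and 4 and carried 24 and 15, so the variation was not limited to the KO mice. The 5 F4 mice missed 6 to 17, and 17 was the most in any library. The 36 reference loci include the 2 loci of chromosome 4 that were below 10 RPM in KO mice alone. These loci add to the count of a KO mouse that missed them, but not to that of the WT mice.

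Most of the 54 loci without a reference LTR were shared with the crosses. In all, 40 of them were also called outside B6, with 33 in F1, 25 in F2 and 26 in Chr2-cl mice, and 14 were called in B6 libraries alone. An intronic locus of Galnt13, a glycosyltransferase gene, and chr2:21142443-21143680 on the same chromosome were carried by the same B6 mouse, T2682, at 300 and 301 RPM. Both were also called in 4 of 8 Chr2-cl mice and in no F1 or F2 mouse. The reference locus at Unc13b, a synaptic vesicle priming gene, was called in 75 of the 76 main libraries, and the 1 B6 library without it held 3.81 RPM.

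B6-variable loci also came in blocks. Grouping loci within 20000000 bp whose B6 calls differed at most once gave 11 blocks of 3 or more loci, with 36 loci in all. At the start of chromosome 1, loci without and with a reference LTR alternated along the chromosome, and their carriers differed but were shared in part. The first without an LTR, chr1:4688534-4690456, held 276 RPM in the WT mouse T09656 and 1.11 RPM in T09655, and 1.27 and 0 RPM in the ES lines. It held 247 to 273 RPM in the 3 F3 mice and 240 to 385 RPM in the 5 F4 mice.

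Among the reference loci of this stretch, chr1:7910467-7913172 held 448 RPM in T09655, 332 RPM in T09656 and 473 and 447 RPM in the ES lines. It held 310 to 355 RPM in the F3 mice. In F4 it had no read in T09691 and T09692 and 1.5 RPM in T09694, but 330 RPM in T09693 and 372 RPM in T09695. Thus the F4 mice T09691, T09692 and T09694 had the highest values at the first locus, 364 to 385 RPM, and were below 10 RPM at the second. A B6-present locus between them, chr1:5997944-6004956, varied as well, with 13.3 to 19.5 RPM in T09691, T09692, T09694 and T09695 and 365 to 536 RPM in the other B6 libraries. It was called in all of them, since the low values passed 10 RPM.

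**Figure D5:**
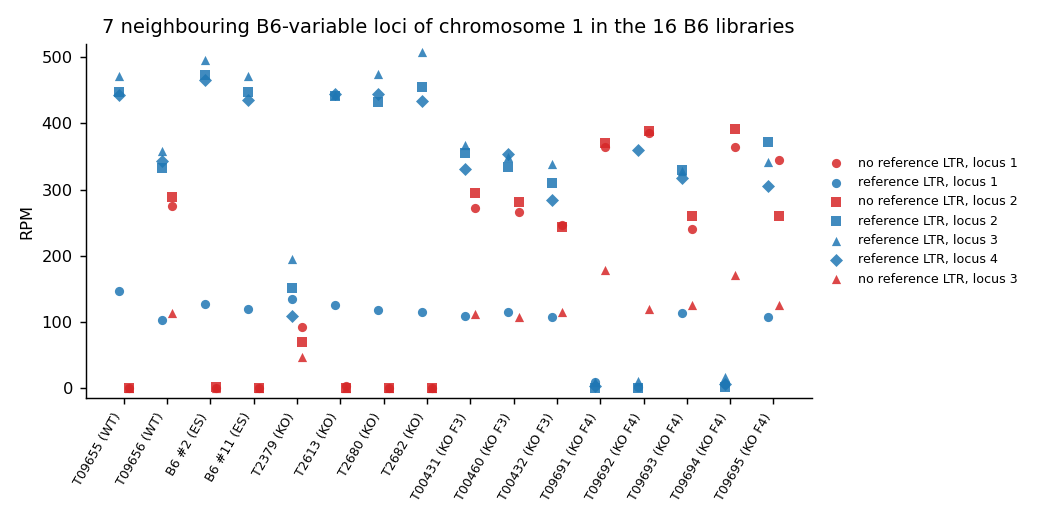
RPM (y axis) of 7 B6-variable loci from the first 14 Mb of chromosome 1 in each of the 16 B6 libraries (x axis), with 1 point per locus and library, blue for loci with a reference LTR and red for loci without. WT mouse T09655, the ES lines and 3 KO mice show blue points alone at high level, F3 mice show both, and F4 mice T09691 and T09694 show red points alone at high level.

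Genotype and sex were compared at all loci in 30 juvenile tail libraries of F2 matings 1, 2 and 3, with edgeR's quasi-likelihood test and mating in the model. Neither label was named in the rule. For KO against WT and KO/WT mice, 2855 loci were tested, of which 0.0701% were higher and 0.350% lower at an adjusted p under 0.05. Of the 264 members tested, 25 had an unadjusted p under 0.05, against 158 of all 2855 loci. At the adjusted threshold 2 members were lower and none higher. Both lay on chromosome 4, which carries the deleted cluster, and had become members through KO mice alone, since all 33 and 35 main libraries below 10 RPM at them were from KO mice. Their contrast is therefore described without a test. At chr4:145019453-145021647 the 13 KO mice held 0, 6.03 and 11.1 RPM (lowest, median, highest) and the 17 others 292, 350 and 454 RPM. At chr4:145080501-145083011 they held 1.46, 4.52 and 16 RPM against 387, 444 and 596 RPM.

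The groups did not overlap at either locus. Both loci had become members through low values in KO mice alone, so this separation is partly set by the selection. The share of all tested loci with such a separation is not given here. As a description, the log2 fold changes at these loci were -5.90 and -6.19. At the first of them, all 12 KO mice of the B6 lineage held 3.0 to 19.0 RPM and the WT mice 359 and 358 RPM.

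For males against females, 0.490% of the 2855 loci were higher and 5.36% lower. Of the 264 members, 11 had an unadjusted p under 0.05, against 279 of all 2855 loci. At the adjusted threshold 4 members were higher and none lower. They were the 3 loci of chromosome Y, 1 of which lies in an intron of Uty, and the Ank2 locus of chromosome 3. The Y loci had become members through females and the 4 animals named above, so their contrast is described without a test. At the Uty locus the 13 mice labelled male held 5.85, 267 and 322 RPM and the 17 females 1.26, 5.24 and 8.64 RPM, so the groups overlapped through H04408 alone. Its log2 fold change was 5.55.

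At Ank2, the gene for ankyrin-B (chr3:127000536-127002709), males held 3.29, 10.1 and 15.3 RPM and females 0, 3.70 and 13.9 RPM, and the groups overlapped. The log2 fold change was 1.76 ± 0.43 (SE, edgeR adjusted p = 0.00658), with an exact two-sided permutation p of 0.000387. Both sexes were near the call limit, far below the 223 to 442 RPM of the B6 libraries, and without C6733 the edgeR adjusted p was 0.0514. Within matings 1, 2 and 3 it was 0.775, 1.0 and 0.0439. Without H04408, 13 of all 2854 loci were higher and 160 lower, and 8 members were called. The added ones were B6-absent loci of chromosome X that were lower in males, with log2 fold changes from -5.57 at the Col4a6 locus to -4.64 at chrX:123216481-123218593.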

How the data were processed

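ETn capture-seq was analysed in 87 libraries of 74 mice and 2 ES lines, of which 76 were main libraries and 11 further libraries of the same animals. As the methods of the study describe, the authors aligned each mate to mm9 with Bowtie, discarded duplicates with SAMtools, retained unique reads whose mate lay in an ETn repeat and joined them within 1000 bp with bedtools. The deposited values are raw read counts per region and library, and for the tools no version was stated (not given in the sources used here). Repeated sequence around an element takes no unique reads, so levels can differ between loci with mappability.

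Regions of 10 RPM or more were joined within 1000 bp over all libraries, and counts were summed per locus with Python 3.11.15 and numpy 2.4.6. The members, classes and lists were chosen with earlier results of these data known. Groups came from the labels, and a parent's number that lacked a digit was read as the parent of the same mating. Reference LTRs were found with blastn 2.17.0 (at least 85% identity over 60 bases, e-value 1e-05) from the capture probes in the NCBIM37 genome, of which 1224 of 1274 lay exactly at their stated place. Gene models were those annotated on NCBIM37. Loci named are the 10 B6-present and 10 B6-absent genic loci of highest level (by B6 mean and carrier median), the B6-variable loci with most and fewest B6 carriers, those called in no parent, by edgeR, next to a limit or in 1 cross alone, and those in both parents and few offspring, and any named beyond these was chosen after its values were seen.

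Counts of loci with 10 RPM or more in at least 2 of 30 libraries were fitted in R 4.3.3 with edgeR 4.0.16 (TMM, mating, sex and genotype as terms, Benjamini-Hochberg over all 2855 loci, threshold 0.05), with DESeq2 1.42.0 as an alternative. The script was tested on simulated data. Dose bands departed from the plan. The upper edge was moved from 0.75 to 0.881 after seeing the level of X loci in males, and full dose of B6-absent loci was taken from that level in place of doubling. Other alternatives were other thresholds and joins, thinning to the shallowest library, other reference libraries and leaving out animals. Nothing in the labels says whether repeat libraries came from separate DNA extracts. Figures were drawn with matplotlib 3.10.9.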

Additional observations from a re-analysis of the deposited data

Results flagged for a closer look

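In all, 71 sets, each 1 measure in 1 group of 4 to 10 animals, were examined for a value far from the others, and 8 had one. Chance gives about 1 in 20 where values vary. Some of the 71 sets had no variation and could not have one, and the sets share animals, so this rate is no fair comparison. In the KO mice of mating 1, C6733 called 63 B6-absent loci and the other 4 called 77 to 81. The F1 offspring T00869 called 63 B6-variable loci, had 48.4% of B6-present loci in the middle dose band and a median dose of 1.03 at fixed loci, and its 3 KO siblings were at 54 loci, 37.9 to 39.5% and 1.02. T00869 also called 21 of 22 low-dose B6-present loci. Of the 4 earlier B6 KO mice, T2379 had 58.9% of B6-present loci in the middle band and a median dose of 0.784 at fixed loci, against 6.45 to 12.9% and 0.999 to 1.02. In mating 3, the WT mouse M05139 had a median dose of 1.05 at fixed loci against 1.07 in the other 3 WT mice. The doses at fixed loci were compared after rounding to 3 digits. The other values tied in the groups of T00869 and M05139, so these 2 flags may rest on rounding. M05137 of the same mating called 57.1% of 1-parent loci against 67 to 75.8% in its 7 siblings. The causes were not tested.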

How the results depend on the processing

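No paired analysis was possible because replicate numbers follow the listing order and pair no animals. The number of polymorphic loci was 271 to 350 over all settings, and each class stayed within 1.5 times its count. Thresholds of 50 and 5 RPM gave 350, thresholds of 200 and 20 RPM 288, and joining within 10000 bp, chosen after seeing the data, 271. The median dose of the F1 parents was 0.743 to 0.754 in all settings. The share of 1-parent loci was 61.7 to 63.4% with each offspring left out.

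For KO mice, 8 of 253 members were called in mating 1 alone, where 9 of 2749 loci were higher and 10 lower. In mating 3 alone 10 of 245 members were called, with 11 of 2643 loci higher and 6 lower. All 3 matings together gave 2 members. The added ones were higher in KO, on chromosome 4 in mating 1 and on chromosomes 4, 8 and 11 in mating 3. With each animal left out it was 2 to 3 members. For sex, 7 members were called without mating in the model, with 40 of 2855 loci higher and 193 lower. Without H04408 and C5733 it was 8, with 13 of 2801 loci higher and 147 lower. Mating 1 alone gave 8, with 8 of 2749 loci higher and 131 lower. Mating 2 alone gave 0, with no locus called among 2732. Mating 3 alone gave 9, with 14 of 2643 loci higher and 103 lower. The main fit gave 4. In mating 2 alone, edgeR gave 10 of 250 members with an unadjusted p under 0.05, against 172 of all 2732 loci. With each animal left out, 3 (without C6733) to 8 (without H04408) members were called. Over all loci these 2 fits gave 10 of 2855 higher and 147 lower, and 13 of 2854 higher and 160 lower. No result changed direction, and the causes were not tested. Depth limits calls near 10 RPM, which stand on 5.25 to 10.5 reads.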
